A study of Saccharomyces cerevisiae with 16 samples.

Results

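The genes described here encode the mitochondrial respiratory chain and the ATP synthase of the yeast Saccharomyces cerevisiae. Members were taken by symbol from the gene annotation of the array, as every gene named COX, QCR, SDH or ATP followed by a digit, with COR1, CYT1, RIP1, CYC1, CYC7, NDI1, NDE1 and NDE2. This gave 60 of the 5449 genes with a probe set, each with 1 probe set. Of these, 40 encode subunits or electron carriers and 20 encode assembly factors. The rule took up no gene of the mitochondrial genome, so COX1, COX2, COX3, COB, ATP6, ATP8 and OLI1 are not analysed here. The arrays came from steady-state chemostats of a mutant strain, SCE088, and a reference strain, SCE090, whose genetic difference the labels do not give. Each strain was grown on ethanol or on glucose, with growth limited either by nitrogen, as ammonium sulfate, or by that carbon source. The 8 groups are therefore the mutant and the reference strain nitrogen-limited on ethanol, ethanol-limited, nitrogen-limited on glucose and glucose-limited, with 2 arrays each. Dilution rate, aeration and strain background are not given in the sources used here.

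Electrons enter the yeast chain through single-protein NADH dehydrogenases, which take the place of complex I and pump no protons, and through succinate dehydrogenase (complex II). They pass by way of ubiquinone to the cytochrome bc1 complex (complex III), then by cytochrome c to cytochrome c oxidase (complex IV), and the proton gradient drives the ATP synthase. In this yeast the nuclear genes of the chain are known to be lowered by high glucose and raised on nonfermentable carbon, largely through heme and the Hap2/3/4/5 complex, and a few subunits have a second isoform that is favoured at low oxygen, such as COX5B for COX5A and CYC7 for CYC1.

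Values are log2 intensities, and a difference of 1 on this scale is a doubling. Array medians lay between 11.91 and 12.01, and the 2 arrays of a group correlated across all probe sets with r between 0.984 and 0.997. For a member, the median difference between the 2 arrays of a group was 0.021 to 0.063, against 0.046 to 0.108 for all probe sets. Markers of the conditions followed the labels. ICL1, of the glyoxylate cycle, had group means of 14.46 to 14.62 on ethanol and 11.27 to 12.70 on glucose, and DAL5, an allantoate transporter under nitrogen control, had 14.24 to 14.48 under nitrogen limitation and 11.01 to 13.43 under carbon limitation. GAP1 and MEP2, also read for nitrogen limitation, separated it less on ethanol than on glucose. In the mutant on ethanol GAP1 had 14.22 under nitrogen limitation against 14.18 under ethanol limitation, and MEP2 had 14.81 against 14.73. In the reference strain on ethanol GAP1 had 14.21 against 14.06, and MEP2 had 14.79 against 14.59. Most subunit genes were bright, and 38 of the 40, but 2 of the 20 assembly factors, had a mean above the upper quartile of all probe sets (12.71). The highest member value was 14.53, and the highest value on any array was 15.13. Whether the 2 arrays of a group stand for 2 cultures is not stated in the labels, and a p-value here reflects no more than array-to-array spread, possibly technical.

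Across the 8 groups the structural genes mostly moved together, about as far as a typical probe set, and a few isoform genes moved far. The range of the 8 group means had a median of 0.44 over the subunit genes and 0.47 over the assembly factors, against 0.46 over all probe sets. Only NDE2 (range 3.42), COX5B (2.71), CYC7 (2.47) and COX23 spanned 1 or more. The low point was shared. For 47 of the 60 members, 38 of them subunits, the lowest of the 8 group means was that of a strain nitrogen-limited on glucose, which held for 37.2% of all probe sets. In 29 members, all of them subunit genes, the 4 arrays nitrogen-limited on glucose lay below all the other 12 arrays, against 9.66% of all probe sets. These were the 3 NADH dehydrogenase genes, all 4 complex II subunits, COR1, RIP1, QCR6, QCR7 and QCR10 of complex III, COX4, COX5A, COX6, COX7, COX8, COX12 and COX13 of complex IV, and ATP1, ATP2, ATP3, ATP16, ATP15, ATP4, ATP5, ATP14, ATP17 and ATP18 of the ATP synthase. In 3 members, CYC7, COX5B and COX15, those 4 arrays lay above all others, against 10.9% of all probe sets. The map of all members on the 16 arrays shows this block.

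**Figure D1:**
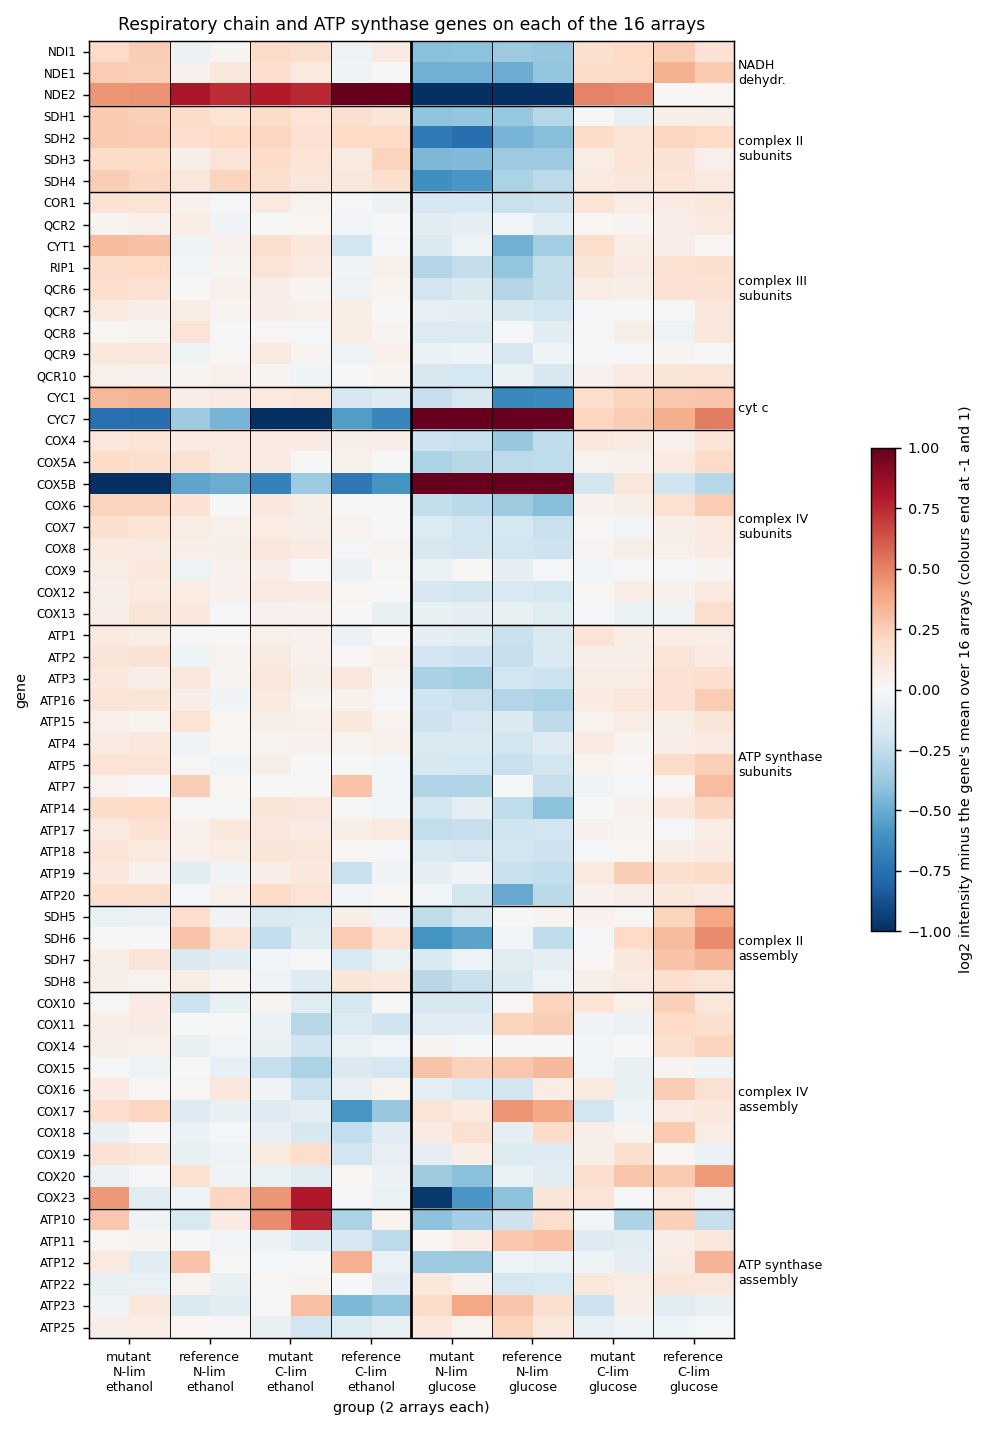
Log2 intensity of each of the 60 members (rows, by complex and class) on the 16 arrays (columns, 2 per group), as the difference from the gene's mean over all arrays. In 29 of the 40 subunit rows the 4 columns nitrogen-limited on glucose lie below all others, and COX5B and CYC7 are highest there. No assembly factor row has all 4 of these columns below the others.

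Nitrogen limitation was first compared with carbon limitation on glucose, within each strain. In the mutant, 38 members were lower under nitrogen limitation and 6 higher (limma, adjusted p under 0.05), against 23.6% of all probe sets lower and 25.2% higher (48.8% in either direction). In the reference strain 40 members were lower and 6 higher, against 22.2% and 21.4% of all probe sets (43.6% in either direction). The median log2 difference of the members was -0.22 in the mutant and -0.27 in the reference strain, and that of all probe sets was 0.00 in both. The strains share no array in these comparisons. Both comparisons use the same estimate of each gene's spread, however, so their calls are not independent. Of the members, 36 were lower in both, which is 94.7% of those in the mutant and 90% of those in the reference strain. Another 5 were higher in both, namely CYC7, COX5B, COX15, COX17 and ATP11. The same overlap was not computed for all probe sets, so this agreement is not shown to be particular to the members. The lower members changed by modest amounts. Of the 37 subunit genes other than COX5B, CYC7 and NDE2, 30 fell in the mutant with a median over all 37 of -0.24, and 32 fell in the reference strain with a median of -0.36.

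All 3 NADH dehydrogenase genes fell under nitrogen limitation on glucose. NDE2, the second of the external enzymes that oxidize cytosolic NADH, had 10.43 and 10.61 in the nitrogen-limited mutant and 13.40 and 13.38 in the glucose-limited mutant. This was a 7.32-fold fall (log2 difference -2.87, SE 0.06, adjusted p = 6.54e-11). NDE2 in the reference strain had 11.79 and 11.72 under nitrogen limitation and 12.91 and 12.93 under glucose limitation, a 2.23-fold fall (-1.16, SE 0.06, adjusted p = 8.98e-08). All 4 nitrogen-limited arrays thus lay below all 4 glucose-limited arrays, and the mutant arrays were the lowest. NDE1, the major external enzyme, had 13.14 on both arrays of the nitrogen-limited mutant against 13.80 and 13.81 under glucose limitation (-0.66, SE 0.05, adjusted p = 1.6e-06). The reference strain had 13.13 and 13.23 for NDE1 under nitrogen limitation and 13.98 and 13.89 under glucose limitation (-0.75, SE 0.05, adjusted p = 7.79e-07). NDI1, the internal enzyme that oxidizes matrix NADH, differed by -0.59 in the mutant and -0.57 in the reference strain, with no overlap between the groups in either. NDE1 and NDI1 thus fell by similar amounts in both strains, unlike NDE2.

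The 4 subunit genes of succinate dehydrogenase, which links the TCA cycle to the chain, fell in both strains, with log2 differences of -0.89 to -0.35 in the mutant and -0.65 to -0.39 in the reference strain. SDH2, the iron-sulfur subunit, changed most. It had 13.21 and 13.16 in the nitrogen-limited mutant against 14.10 and 14.05 in the glucose-limited mutant, a 1.85-fold fall (-0.89, SE 0.04, adjusted p = 2.01e-08). SDH2 in the reference strain had 13.45 and 13.50 under nitrogen limitation and 14.14 and 14.12 under glucose limitation (-0.65, SE 0.04, adjusted p = 3.31e-07). The nitrogen-limited arrays of SDH2 did not overlap with any other arrays. The assembly factors of this complex, SDH5, which attaches FAD to the flavoprotein, and SDH6, SDH7 and SDH8, were also all lower in both strains, by 0.16 to 0.66 on the log2 scale in the mutant and 0.25 to 0.53 in the reference strain. In the mutant SDH5 lost its call without glucose-limited replicate 1 (-0.22), glucose-limited replicate 2 (-0.25) or nitrogen-limited replicate 1 (-0.19). SDH7 lost its call there without glucose-limited replicate 2 or nitrogen-limited replicate 1 (-0.11 in each case). In the reference strain SDH5 lost its call without glucose-limited replicate 2 (-0.22).

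In complex III, 6 of 9 subunit genes fell in the mutant and 7 in the reference strain, and none rose. CYT1, the gene of cytochrome c1, had the widest range of group means in the complex. It had 13.26 and 13.35 in the nitrogen-limited mutant against 13.58 and 13.48 in the glucose-limited mutant (-0.22, SE 0.07, adjusted p = 0.0222), a call lost without replicate 1 of either group (adjusted p = 0.138 nitrogen-limited, 0.148 glucose-limited). The reference strain had 12.92 and 13.05 for CYT1 against 13.47 and 13.42 (-0.46, SE 0.07, adjusted p = 0.000364). RIP1, the Rieske iron-sulfur protein, differed by -0.37 in the mutant and -0.47 in the reference strain. QCR2 lost its call in the mutant whichever array was left out (-0.13 to -0.12). In the reference strain QCR2 lost it without glucose-limited replicate 2 (-0.13) or nitrogen-limited replicate 2 (-0.11). QCR8 and QCR9, both small subunits, passed the test in neither strain, with differences of -0.16 to -0.04.

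The 2 genes of cytochrome c went in opposite directions. CYC1, the main isoform, had 13.35 and 13.42 in the nitrogen-limited mutant against 13.76 and 13.81 under glucose limitation (-0.40, SE 0.04, adjusted p = 8.96e-06). For CYC1 the reference strain had 12.94 on both nitrogen-limited arrays against 13.85 and 13.86 under glucose limitation, a 1.88-fold fall (-0.91, SE 0.04, adjusted p = 1.83e-08). CYC7, the isoform favoured at low oxygen, had 12.48 and 12.49 in the nitrogen-limited mutant and 11.51 and 11.55 in the glucose-limited mutant, a 1.95-fold rise (0.96, SE 0.06, adjusted p = 3.06e-07). Its values in the reference strain were 12.50 and 12.45 under nitrogen limitation and 11.66 and 11.80 under glucose limitation (0.74, SE 0.06, adjusted p = 2.99e-06). On the nitrogen-limited arrays the 2 strains were alike for CYC7 and apart for CYC1.

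The same opposition held for subunit 5 of complex IV. COX5B, its hypoxic isoform, had 12.73 and 12.84 in the nitrogen-limited mutant and 11.04 and 11.33 in the glucose-limited mutant, a 3.03-fold rise (1.60, SE 0.11, adjusted p = 9.61e-07). For COX5B the reference strain had 12.80 and 12.69 against 11.02 and 10.93, a 3.42-fold rise (1.77, SE 0.11, adjusted p = 5.62e-07). COX5A, the aerobic isoform, had 13.63 and 13.67 in the nitrogen-limited mutant against 13.99 and 14.00 under glucose limitation (-0.34, SE 0.04, adjusted p = 0.000107). The reference strain had 13.68 and 13.69 for COX5A against 14.05 and 14.14 (-0.40, SE 0.04, adjusted p = 3.57e-05). Among the other nuclear subunits of complex IV, COX4, COX6, COX7, COX8 and COX12 fell in both strains, and COX9 and COX13 passed the test in neither. COX6 changed most among them, with -0.31 in the mutant and -0.59 in the reference strain. The plot of the isoform pairs sets both members of each pair on axes of the same span.

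**Figure D2:**
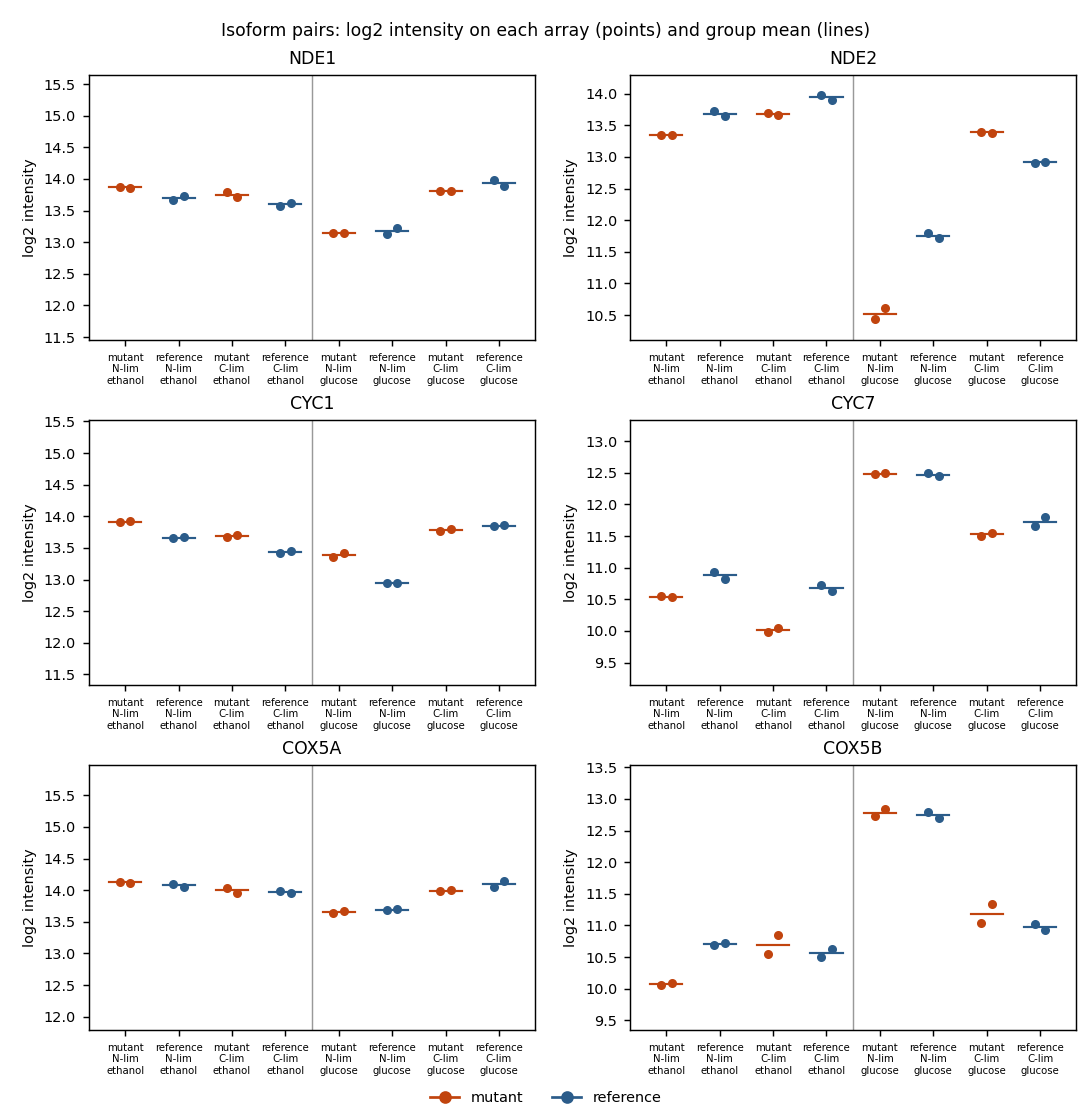
Log2 intensity of the 3 isoform pairs NDE1 and NDE2, CYC1 and CYC7, COX5A and COX5B on each array (points) with the mean of each group (lines), mutant in orange and reference in blue, ethanol groups left of glucose groups. Levels of different genes are not comparable, but all panels span the same log2 width, and the right-hand gene of each pair moves further than the left-hand one.

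The subunits of the ATP synthase fell as a block of small differences. In the mutant 11 of 13 were lower, and all 13 differences lay between -0.41 and -0.16. ATP14 lost its call there without glucose-limited replicate 1 (-0.19), glucose-limited replicate 2 (-0.14) or nitrogen-limited replicate 1 (-0.12). ATP19 lost its call there without glucose-limited replicate 2 (-0.17) or nitrogen-limited replicate 1 (-0.21). Of the 13, 12 were lower in the reference strain, and all lay between -0.51 and -0.22. ATP3, the gamma subunit of the catalytic F1 part, differed by -0.41 in the mutant and -0.36 in the reference strain. ATP16, the delta subunit of F1, had 13.49 and 13.47 in the nitrogen-limited mutant against 13.78 and 13.81, and 13.40 and 13.37 in the nitrogen-limited reference strain against 13.84 and 13.95. ATP7, of the peripheral stalk, passed the test in neither strain although its differences, -0.28 and -0.29, were like those of its neighbours. Its 2 reference arrays lay 0.22 to 0.31 apart in every group, and its 2 mutant arrays 0.00 to 0.03 apart. By the replicate numbers of the sample descriptions the higher reference array was replicate 1 in every group, and with those numbers as a block within each strain, a fit chosen after seeing the data, ATP7 passed in both the mutant (-0.28, SE 0.03, adjusted p = 0.000153) and the reference strain (-0.29, SE 0.03, adjusted p = 0.000139). ATP12, a chaperone of F1, also had reference arrays up to 0.43 apart.

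The assembly factors of complex IV and of the ATP synthase had no common direction under nitrogen limitation on glucose. COX17, a copper chaperone, rose in both strains, by 0.24 in the mutant and 0.32 in the reference strain, as did COX15, which acts in heme A synthesis (0.31 in each), and ATP11, a chaperone of F1 (0.17 and 0.20). In the mutant COX17 lost its call without glucose-limited replicate 1 (adjusted p = 0.13) or nitrogen-limited replicate 1 (0.0788), and ATP11 without glucose-limited replicate 1 (0.0541) or nitrogen-limited replicate 2 (0.0751). COX20, a chaperone of COX2, fell in both, with 12.34 and 12.27 in the nitrogen-limited mutant against 12.86 and 12.97 under glucose limitation (-0.61, SE 0.07, adjusted p = 7.13e-05), and a difference of -0.43 in the reference strain. COX23, a factor of copper delivery, had 10.12 and 10.51 in the nitrogen-limited mutant against 11.22 and 11.07 (-0.83, SE 0.22, adjusted p = 0.0101). This call was lost without glucose-limited replicate 1 (adjusted p = 0.0622) or nitrogen-limited replicate 1 (0.0856). COX23 did not pass in the reference strain, with 10.68 and 11.21 against 11.18 and 11.05. ATP23, a protease that processes ATP6, had 11.74 and 11.95 in the nitrogen-limited mutant against 11.35 and 11.62 (0.36, adjusted p = 0.0261). Its call was lost without glucose-limited replicate 1 (adjusted p = 0.211) or nitrogen-limited replicate 2 (0.182).

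On ethanol few members passed for the same change of limitation, 9 of 60 in the mutant and 4 in the reference strain. In the mutant 7 members were higher and 2 lower under nitrogen limitation, against 6.53% and 7.79% of all probe sets (14.3% in either direction), and the median difference of the members was 0.06. After median centring 14 were higher and 2 lower, with a median of 0.11, and the replicate block by description numbers gave 20 calls. In the reference strain 3 were higher and 1 lower, against 4.62% and 3.59% of all probe sets (8.21% in either direction), and the median was 0.03. CYC1 rose a little in each strain, with 13.91 and 13.92 in the nitrogen-limited mutant against 13.68 and 13.70 when ethanol-limited (0.23, SE 0.04, adjusted p = 0.00367), and 13.65 and 13.67 in the nitrogen-limited reference strain against 13.41 and 13.45 (0.23, SE 0.04, adjusted p = 0.00405). Both calls of CYC1 were lost when only the arrays compared were fitted (adjusted p = 0.0801 in the mutant and 0.204 in the reference strain), a fit that left 1 member called in the mutant and 0 in the reference strain. NDE2 fell a little, by 0.33 in the mutant and 0.26 in the reference strain, and the call in the reference strain was lost without ethanol-limited replicate 1 (adjusted p = 0.143), ethanol-limited replicate 2 (0.0542) or nitrogen-limited replicate 2 (0.132).

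COX5B and CYC7 parted company on ethanol in the mutant. COX5B had 10.05 and 10.10 in the nitrogen-limited mutant against 10.54 and 10.85 when ethanol-limited (-0.62, SE 0.11, adjusted p = 0.00563), and in the reference strain 10.69 and 10.72 against 10.50 and 10.63 (0.14, adjusted p = 0.619). CYC7 had 10.55 and 10.54 in the nitrogen-limited mutant against 9.99 and 10.05 (0.53, SE 0.06, adjusted p = 0.000343), and 10.93 and 10.83 in the nitrogen-limited reference strain against 10.73 and 10.64 (0.19, adjusted p = 0.0752). The nitrogen-limited mutant was therefore lowest of the 8 groups for COX5B, and the ethanol-limited mutant lowest for CYC7. COX17 rose in the mutant by 0.30 (adjusted p = 0.0175) and in the reference strain by 0.38 (adjusted p = 0.00674). In the mutant its call was lost without either ethanol-limited array (adjusted p = 0.0632 and 0.0745) or either nitrogen-limited array (0.0502 and 0.123), and in the reference strain without nitrogen-limited replicate 2 (0.0536). ATP11 rose in the reference strain, with 12.44 and 12.41 against 12.27 and 12.18 (0.20, adjusted p = 0.0199), a call lost without ethanol-limited replicate 2 (0.149) or either nitrogen-limited array (0.115 and 0.0688). COX15 rose in the mutant by 0.25 (adjusted p = 0.00827), a call lost without ethanol-limited replicate 2 (0.0776) or nitrogen-limited replicate 1 (0.0529). The count of 9 in the mutant was 4 when ethanol-limited replicate 2 or nitrogen-limited replicate 1 was left out, 5 when nitrogen-limited replicate 2 was, and 20 with the replicate numbers of the sample descriptions as a block within each strain. The count of 4 in the reference strain was 2 when ethanol-limited replicate 2 was left out and 1 when nitrogen-limited replicate 2 was.

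**Figure D3:**
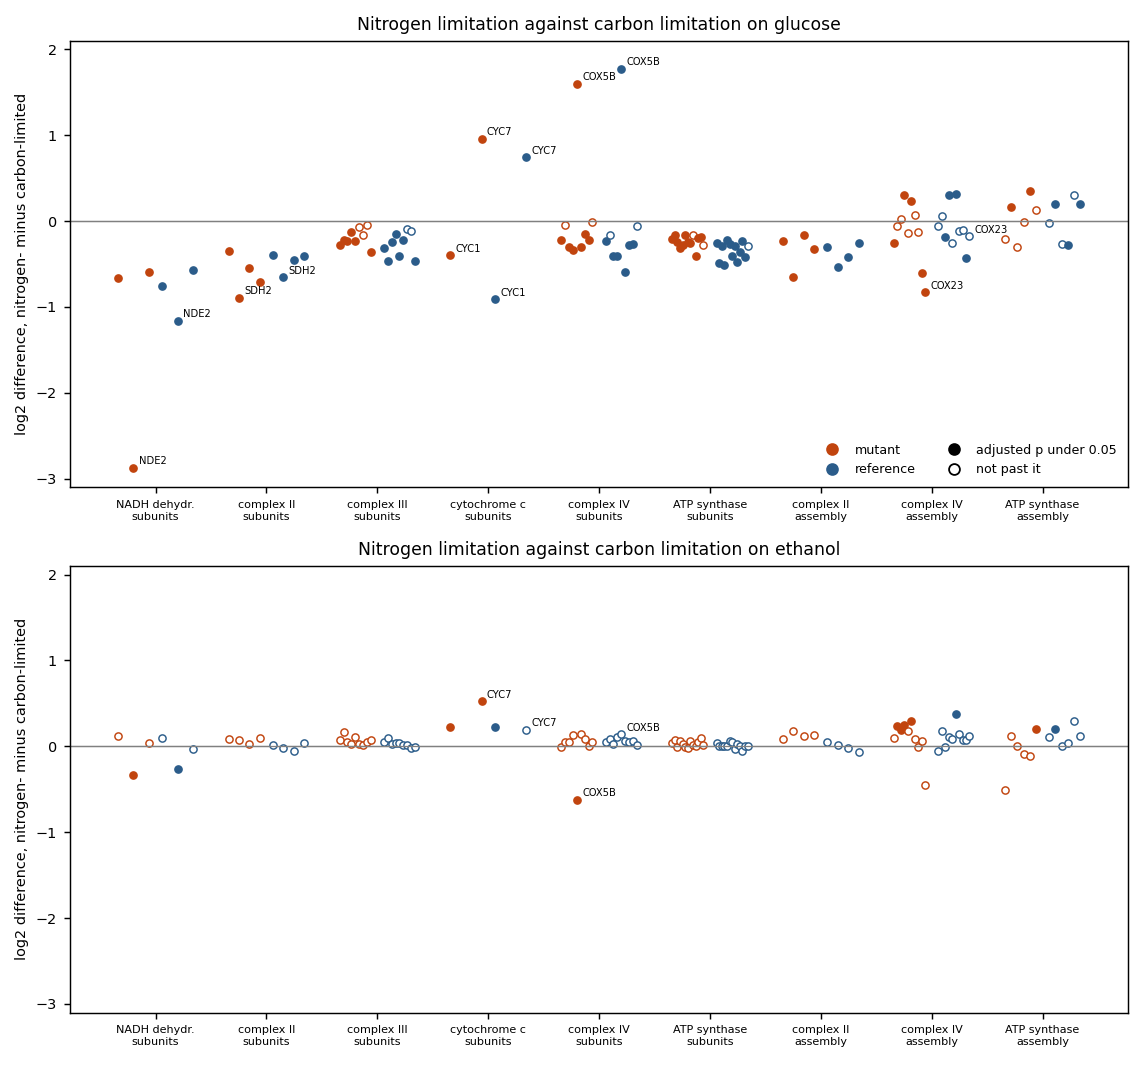
Log2 difference of each member between nitrogen and carbon limitation on glucose (top) and on ethanol (bottom), by complex and class, mutant in orange left of reference in blue, with filled points for an adjusted p under 0.05. On glucose nearly all subunits lie below 0 apart from COX5B and CYC7, and on ethanol most points lie within 0.2 of 0.

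Whether the effect of limitation depended on the carbon source was tested in the reference strain as an interaction, the nitrogen minus carbon difference on ethanol less that on glucose. It passed for 39 members, 37 positive and 2 negative, against 14% and 10.5% of all probe sets (24.5% in either direction), with a median of 0.30 for the members and 0.02 for all probe sets. The median was 0.37 over the 40 subunits and 0.18 over the 20 assembly factors. The largest positive values were those of CYC1 (1.14, SE 0.05, adjusted p = 1.79e-07), NDE2 (0.90, SE 0.08, adjusted p = 2.43e-05) and NDE1 (0.85, SE 0.07, adjusted p = 1.13e-05). The 2 negative ones were COX5B (-1.63, SE 0.16, adjusted p = 3.95e-05) and CYC7 (-0.55, SE 0.08, adjusted p = 0.000776).

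Ethanol was then compared with glucose under nitrogen limitation. This uses the same arrays nitrogen-limited on glucose as above, so its values are not independent of those. In the mutant 39 members were higher on ethanol and 4 lower, against 19.5% and 23% of all probe sets (42.5% in either direction), with a median of 0.28. In the reference strain 33 were higher and 9 lower, against 17.7% and 15.9% (33.6% in either direction), with a median of 0.20. All 33 members that were higher in the reference strain were also higher in the mutant, where they are 84.6% of the higher ones. This overlap too was not computed for all probe sets.

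NDE2 rose 7.10-fold in the mutant, with 13.34 and 13.35 on ethanol against 10.43 and 10.61 on glucose (2.83, SE 0.06, adjusted p = 7.34e-11), and 3.80-fold in the reference strain, with 13.72 and 13.64 against 11.79 and 11.72 (1.92, adjusted p = 2.19e-09). SDH2 rose 1.99-fold in the mutant and 1.54-fold in the reference strain. CYC1 rose by 0.53 in the mutant and 0.72 in the reference strain, NDE1 by 0.73 and 0.52, NDI1 by 0.63 and 0.35, and COX5A by 0.47 and 0.39. COX5B fell 6.54-fold in the mutant, with 10.05 and 10.10 on ethanol against 12.73 and 12.84 on glucose (-2.71, SE 0.11, adjusted p = 1.81e-08), and 4.11-fold in the reference strain (-2.04, adjusted p = 2.74e-07). For CYC7 the fall was 3.85-fold in the mutant and 3.01-fold in the reference strain. COX15 was the only other member lower in both strains, by 0.28 and 0.34. COX17 differed by 0.08 in the mutant (adjusted p = 0.374) and by -0.51 in the reference strain (adjusted p = 0.00024). The rise of COX23 in the mutant (0.94, adjusted p = 0.00642) was lost without replicate 1 on glucose (adjusted p = 0.0586) or replicate 1 on ethanol (0.0636). When the fit held only the arrays compared, the count of 42 in the reference strain was 14.

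Under carbon limitation, where each culture was limited by its own carbon source, ethanol and glucose differed less for the chain. In the mutant 4 members were higher on ethanol and 5 lower, against 16.2% and 15.7% of all probe sets (31.9% in either direction), with a median of 0.01. The split depended on the scaling, with 3 higher and 9 lower after median centring and 4 higher and 8 lower after quantile normalization. In the reference strain 1 was higher and 21 lower, against 11.3% and 13% of all probe sets (24.3% in either direction), with a median of -0.12. All 20 assembly factors had negative differences in the reference strain, 10 of them past the test, among them COX17 (11.29 and 11.50 against 11.96 and 11.98, -0.57, SE 0.07, adjusted p = 0.000203) and SDH7 (12.18 and 12.27 against 12.62 and 12.67, -0.42, SE 0.05, adjusted p = 0.000231). The share of all probe sets with a negative difference is not given here. Not all of these calls were firm. COX15 lost its call whichever array was left out (differences of -0.18 to -0.11). The calls of SDH5, COX18, COX20 and ATP22 were each lost for at least 1 array left out. In the mutant COX17 differed by 0.01 and SDH7 by -0.09, neither past the test.

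CYC7 fell on ethanol in both strains under carbon limitation, with 9.99 and 10.05 against 11.51 and 11.55 in the mutant (-1.51, SE 0.06, adjusted p = 5.02e-08) and 10.73 and 10.64 against 11.66 and 11.80 in the reference strain (-1.04, SE 0.06, adjusted p = 7.34e-07). NDE2 rose, with 13.70 and 13.66 against 13.40 and 13.38 in the mutant (0.29, SE 0.06, adjusted p = 0.00401) and 13.98 and 13.91 against 12.91 and 12.93 in the reference strain (1.02, SE 0.06, adjusted p = 8.02e-07). CYC1 differed by -0.09 in the mutant (adjusted p = 0.0747) and fell by 0.42 in the reference strain (adjusted p = 2.32e-05). NDE1 differed by -0.05 in the mutant (adjusted p = 0.433) and fell by 0.33 in the reference strain (adjusted p = 0.000816). COX5B fell by 0.49 in the mutant and 0.41 in the reference strain. Its call was lost in the mutant without glucose-limited replicate 2 (adjusted p = 0.0694) or ethanol-limited replicate 1 (0.059), and in the reference strain without glucose-limited replicate 1 (0.115), glucose-limited replicate 2 (0.0607) or ethanol-limited replicate 1 (0.138). ATP10, an assembly factor of the F0 part and the dimmest member, had 9.96 and 10.24 on ethanol against 9.46 and 9.18 on glucose in the mutant (0.78, SE 0.20, adjusted p = 0.0154), a call lost without replicate 2 on ethanol (0.106) or replicate 2 on glucose (0.102). SDH1, the flavoprotein of succinate dehydrogenase, rose in the mutant, with 13.86 and 13.82 against 13.67 and 13.60 (0.20, adjusted p = 0.00621), a call lost without glucose-limited replicate 2 (0.0521).

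These counts under carbon limitation rested on few arrays. The count of 9 in the mutant was 3 without glucose-limited replicate 2, 4 without ethanol-limited replicate 2, and 16 with the replicate block within each strain. That of 22 in the reference strain was 12 without glucose-limited replicate 2, 14 without ethanol-limited replicate 1, and 7 when only the arrays compared were fitted.

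Mutant and reference strains were compared in each of the 4 conditions. Between 8 and 15 of the 60 members passed in a condition. Nitrogen-limited on ethanol, 10 members were higher in the mutant and 3 lower, against 5.65% and 10.1% of all probe sets (15.8% in either direction). Ethanol-limited, 10 were higher and 4 lower, against 12.2% and 12.6% (24.8% in either direction), or 6 higher and 4 lower after median centring. Nitrogen-limited on glucose, 5 were higher and 10 lower, against 9.99% and 11.1% (21.1% in either direction), but 10 higher and 8 lower after quantile normalization. Glucose-limited, 1 was higher and 7 lower, against 9.41% and 8.8% (18.2% in either direction). The medians of the members in this order were 0.07, 0.05, -0.00 and -0.06. Neither of the core subunits of complex III, COR1 and QCR2, passed in any condition, and of the 9 complex IV subunits only COX5B did, in 1 condition.

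NDE2 was the only member that passed in all 4 conditions, and its sign was not constant. It was 2.36-fold lower in the mutant when nitrogen-limited on glucose, with 10.43 and 10.61 against 11.79 and 11.72 in the reference strain (-1.24, SE 0.06, adjusted p = 2.54e-07). It was lower by 0.33 on the log2 scale when nitrogen-limited on ethanol (adjusted p = 0.00367) and by 0.26 when ethanol-limited (adjusted p = 0.0101). The last call was lost without mutant replicate 2 (adjusted p = 0.0716) or reference replicate 1 (0.0786). When glucose-limited, NDE2 was 1.39-fold higher in the mutant, with 13.40 and 13.38 against 12.91 and 12.93 (0.47, SE 0.06, adjusted p = 0.000515). In no condition did the arrays of the strains overlap for NDE2. The other NADH dehydrogenase genes were a little higher in the mutant on ethanol, NDE1 by 0.17 when nitrogen-limited and 0.15 when ethanol-limited, and NDI1 by 0.23 and 0.17. NDE1 lost both calls whichever of the 4 arrays was left out (adjusted p of 0.0534 to 0.246), and NDI1 lost each of its calls without 3 of the 4 (0.0514 to 0.3).

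CYC1 was higher in the mutant in 3 of the 4 conditions. It had 13.35 and 13.42 in the mutant nitrogen-limited on glucose against 12.94 on both reference arrays (0.44, SE 0.04, adjusted p = 1.98e-05). The difference was 0.25 both when nitrogen-limited on ethanol (adjusted p = 0.00142) and when ethanol-limited (adjusted p = 0.0012), and -0.07 when glucose-limited (adjusted p = 0.227). Both calls on ethanol were lost when only the arrays compared were fitted (adjusted p = 0.083 nitrogen-limited, 0.0805 ethanol-limited). CYT1, whose product passes electrons to cytochrome c, passed in the same 3 conditions, at 0.32, 0.30 and 0.24. On glucose its call was lost without mutant replicate 2 (adjusted p = 0.0821) or reference replicate 1 (0.066), and nitrogen-limited on ethanol without either mutant array (0.0821 and 0.0803) or reference replicate 1 (0.123). Ethanol-limited it was lost without either mutant array (adjusted p = 0.116 and 0.104) or reference replicate 1, without which the difference was 0.15 (0.226). ATP20, subunit g of the ATP synthase, was higher by 0.28 when nitrogen-limited on glucose, a call lost without mutant replicate 1 (adjusted p = 0.161) or reference replicate 1 (0.133).

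CYC7 went the other way on ethanol. It had 9.99 and 10.05 in the ethanol-limited mutant against 10.73 and 10.64 in the reference strain, 1.59-fold lower (-0.67, SE 0.06, adjusted p = 6.65e-05), and 10.55 and 10.54 against 10.93 and 10.83 when nitrogen-limited on ethanol (-0.34, SE 0.06, adjusted p = 0.00356). On glucose it differed by 0.02 when nitrogen-limited (adjusted p = 0.867). COX5B was 1.55-fold lower in the mutant nitrogen-limited on ethanol, with 10.05 and 10.10 against 10.69 and 10.72 (-0.63, SE 0.11, adjusted p = 0.00418), and passed in no other condition. When glucose-limited, CYC7 was lower in the mutant by 0.20 (adjusted p = 0.0376), a call lost without reference replicate 2 (0.246) or either mutant array (0.167 and 0.103). On nitrogen-limited glucose, where both isoforms were at their highest, neither passed the test between the strains.

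Of the succinate dehydrogenase subunits, 2 passed between the strains, and only when nitrogen-limited on glucose, where SDH2 (-0.29, adjusted p = 0.000559) and SDH4, a membrane anchor (-0.31, adjusted p = 0.000976), were lower in the mutant. SDH4 had 13.31 and 13.34 in the mutant against 13.61 and 13.66 in the reference strain. SDH6, an assembly factor, was lower in the mutant by 0.43 when nitrogen-limited on glucose (adjusted p = 0.0126) and by 0.37 when ethanol-limited (adjusted p = 0.0223). The first call was lost without either mutant array (adjusted p = 0.0739 and 0.0546) or reference replicate 1 (0.0856), and the second without either mutant array (0.105 and 0.0528) or reference replicate 1 (0.134). COX11, which delivers copper to complex IV, was lower by 0.34 when nitrogen-limited on glucose, with 11.29 and 11.28 against 11.62 and 11.64 (adjusted p = 0.00269). When glucose-limited, COX11 was lower in the mutant by 0.23, a call lost whichever of the 4 arrays was left out (adjusted p of 0.0819 to 0.123). In the same condition SDH5 had 12.64 and 12.61 in the mutant against 12.82 and 12.98 (-0.28, adjusted p = 0.027), and SDH7 had 12.35 and 12.44 against 12.62 and 12.67 (-0.25, adjusted p = 0.00817). SDH5 lost its call without reference replicate 2 (0.189) or either mutant array (0.0907 and 0.127), and SDH7 without reference replicate 2 (0.0641) or mutant replicate 1 (0.0667).

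Among the calls when ethanol-limited, 3 assembly factors had the largest rises. ATP10 had 9.96 and 10.24 in the mutant against 9.17 and 9.52 in the reference strain (0.76, SE 0.20, adjusted p = 0.023), ATP23 had 11.57 and 11.86 against 11.11 and 11.16 (0.58, SE 0.11, adjusted p = 0.0058), and COX17 had 11.75 and 11.79 against 11.29 and 11.50 (0.37, SE 0.07, adjusted p = 0.00394). ATP10 lost its call without mutant replicate 2 (adjusted p = 0.16) or reference replicate 1 (0.153), and ATP23 without mutant replicate 2 (0.0555). COX17 was higher in the mutant nitrogen-limited on ethanol too (0.29, adjusted p = 0.0163), where its call was lost without either mutant array (0.0549 and 0.117) or reference replicate 1 (0.114). On nitrogen-limited glucose COX17 was lower in the mutant (-0.30, adjusted p = 0.0118). That call was lost without mutant replicate 2 (-0.28) or reference replicate 1 (-0.27).

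**Figure D4:**
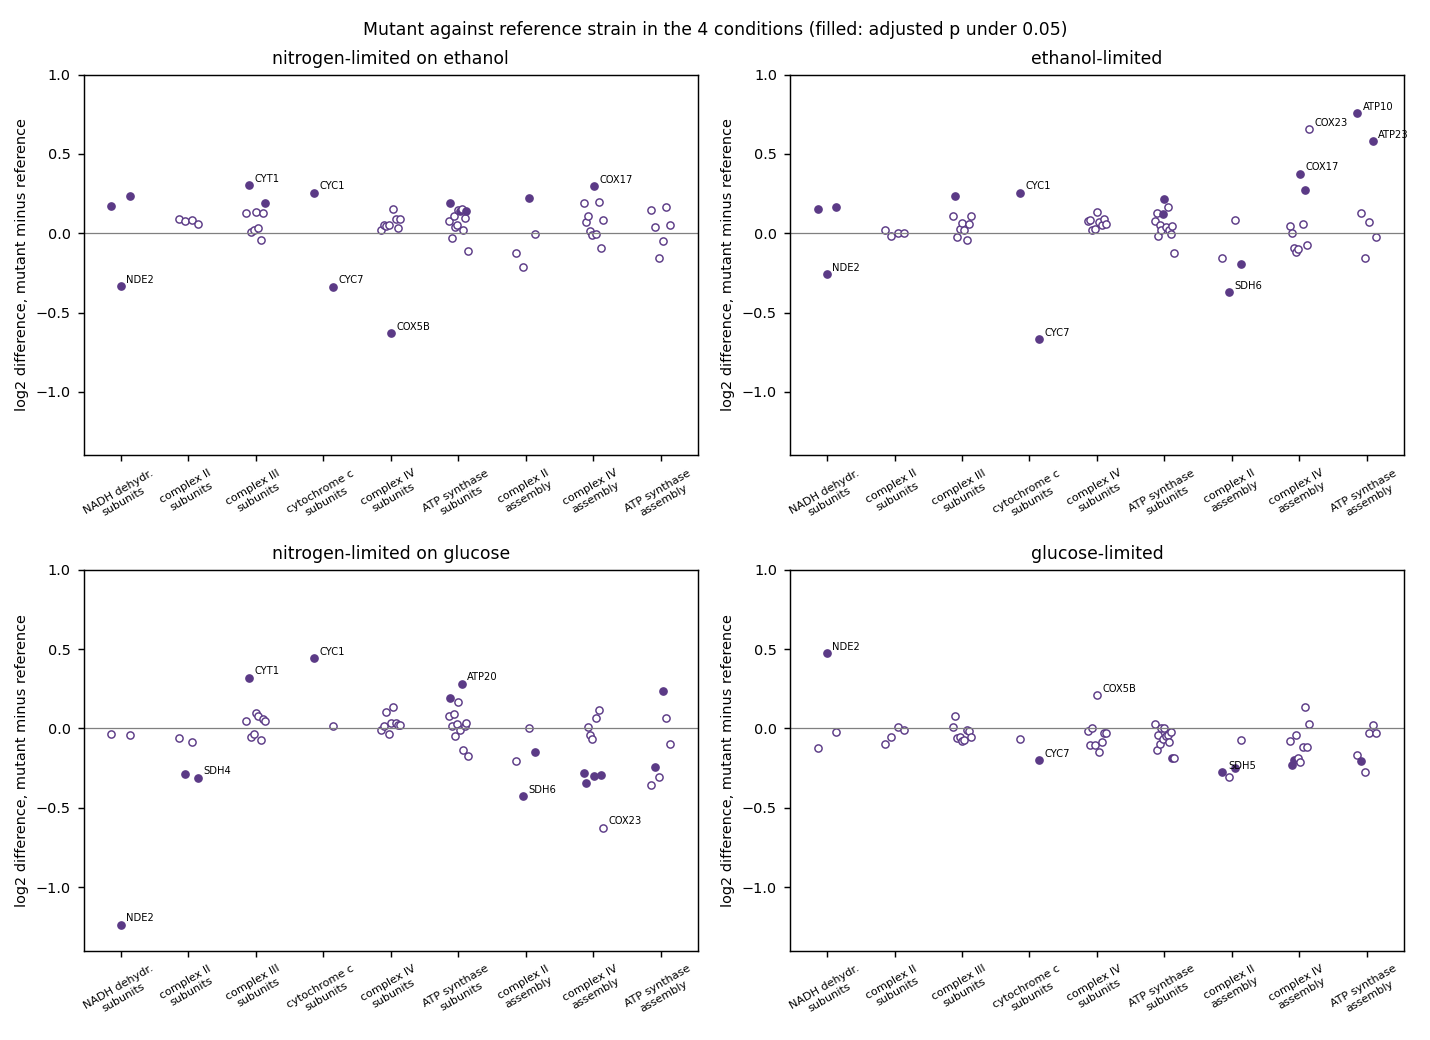
Log2 difference of each member between mutant and reference strain in the 4 conditions (panels), by complex and class, with filled points for an adjusted p under 0.05. NDE2 passes in every panel, positive when glucose-limited and negative elsewhere, while the subunits of complexes III and IV and of the ATP synthase lie mostly within 0.2 of 0.

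The strain counts varied with single arrays. When glucose-limited, the 8 calls were 1 without reference replicate 2 and 2 without either mutant array, and 17 with the replicate block within each strain. When nitrogen-limited on glucose, the 15 calls were 8 without either mutant array. When ethanol-limited, the 14 calls were 4 when reference replicate 1 was left out, and 9 or 3 when mutant replicate 1 or 2 was. When nitrogen-limited on ethanol, the 13 calls were 5 without reference replicate 1 or mutant replicate 1, 4 without mutant replicate 2, and 27 with the replicate block. When the fit held only the arrays compared, the 4 comparisons had 1 to 4 calls.

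Interactions tested whether a change differed between the strains, as the mutant's change less that of the reference strain. For nitrogen against carbon limitation on glucose 7 members were positive and 3 negative, against 10.2% and 10.5% of all probe sets (20.7% in either direction). NDE2 was the extreme (-1.71, SE 0.08, adjusted p = 3.86e-07), its fall being 7.32-fold in the mutant and 2.23-fold in the reference strain, and SDH4 (-0.30) and SDH2 (-0.24) were the other negative ones. CYC1 was positive (0.51, SE 0.05, adjusted p = 9.34e-05), its fall being 1.32-fold in the mutant and 1.88-fold in the reference strain. The count of 10 was 4 without glucose-limited reference replicate 2 or mutant replicate 1, 6 without glucose-limited mutant replicate 2 or either nitrogen-limited mutant array, and 17 with the replicate block within each strain. On ethanol the same interaction passed for 1 member in each direction, against 2.34% and 3.88% of all probe sets (6.23% in either direction), namely CYC7 (0.33, adjusted p = 0.0428) and COX5B (-0.76, adjusted p = 0.0203). CYC7 lost this call whichever of the 8 arrays was left out (adjusted p of 0.0537 to 0.127), and COX5B for 6 of the 8 (0.0531 to 0.0754). For ethanol against glucose under carbon limitation 10 were positive and 2 negative, against 10.2% and 11.1% (21.3% in either direction), with NDE2 (-0.73, SE 0.08, adjusted p = 0.000221), CYC7 (-0.47, SE 0.08, adjusted p = 0.00312) and COX17 (0.59, SE 0.10, adjusted p = 0.00218) among them. The count of 12 was 7 without glucose-limited mutant replicate 1.

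Other genes of the same pathway were set beside the members. Under nitrogen against carbon limitation on glucose, 5 of 7 other dehydrogenases that feed the chain were lower and 2 higher in the mutant, and 4 lower and 1 higher in the reference strain. Of 17 partners and carriers of the ATP synthase, 8 were lower and 3 higher in the mutant, and 8 lower and 2 higher in the reference strain. Of 38 further partner and assembly proteins of complexes II to IV, 10 were lower and 2 higher in the mutant, and 11 lower and 1 higher in the reference strain. The 11 genes of ubiquinone synthesis had 2 lower and 2 higher in each strain, and the 8 genes of heme synthesis had 2 lower and 2 higher in the mutant and 1 lower and 2 higher in the reference strain. The background was again 23.6% lower and 25.2% higher in the mutant and 22.2% and 21.4% in the reference strain. GUT2, the mitochondrial glycerol 3-phosphate dehydrogenase, fell by 1.34 in the mutant and 0.95 in the reference strain, and CYB2, L-lactate dehydrogenase, by 1.23 and 1.11. PUT1, proline oxidase, rose by 1.13 in the mutant and 1.16 in the reference strain. TIM11, subunit e of the ATP synthase, fell by 0.32 in the mutant and 0.55 in the reference strain, and INH1, the inhibitor of its hydrolysis, by 0.33 and 0.47.

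A list of 10 regulator genes held the Hap complex and regulators tied to oxygen or glucose. Under nitrogen limitation on glucose, none rose and 3 fell in the mutant, and 1 rose and 4 fell in the reference strain. Of all probe sets, 25.2% rose and 23.6% fell in the mutant, and 21.4% rose and 22.2% fell in the reference strain. HAP4, the activating subunit of the Hap complex, had 12.82 and 12.85 in the nitrogen-limited mutant on glucose against 12.90 and 12.95 when glucose-limited, and 12.90 and 12.80 in the reference strain against 13.06 and 13.03. The difference was -0.09 in the mutant (adjusted p = 0.232) and -0.19 in the reference strain (adjusted p = 0.0217). HAP4 was higher on nitrogen-limited ethanol than on nitrogen-limited glucose in the mutant, with 13.28 and 13.33 on ethanol (0.47, adjusted p = 0.000117). In the reference strain it had 12.91 and 12.96 on nitrogen-limited ethanol against 12.90 and 12.80 on nitrogen-limited glucose (0.08, adjusted p = 0.31). ROX1, the repressor of hypoxic genes, had 13.11 and 13.13 in the nitrogen-limited mutant on glucose against 13.07 and 13.10 when glucose-limited, and 13.32 and 12.98 against 13.05 and 13.38 in the reference strain, with overlapping arrays in the reference strain and adjusted p of 0.86 and 0.739 in the mutant and the reference strain. CAT8, an activator of gluconeogenic genes, had 10.24 and 10.46 in the nitrogen-limited mutant on glucose against 12.72 and 12.73 when glucose-limited, and 11.27 and 11.43 in the reference strain against 12.58 and 12.57. UPC2, also of this list, had 10.50 and 10.58 in the nitrogen-limited mutant on glucose against 11.96 and 11.92 when glucose-limited. The reference strain had 10.21 and 10.72 for UPC2 against 12.04 and 11.85. MIG1, another of the 10, had 12.59 on both nitrogen-limited mutant arrays on glucose against 12.61 and 12.59 when glucose-limited. In the reference strain MIG1 had 13.30 and 13.05 against 12.34 and 12.64 (0.68), the list's highest difference there.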

How the data were processed

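Total RNA from 16 steady-state chemostat samples was hybridized as biotin-labelled cRNA, 1 sample per Affymetrix yeast array. The deposited values are probe set intensities on a linear scale, normalized and summarized by the authors; the submitters' processing notes name GCRMA without a version, and how GCRMA's log values became linear ones is not stated there. The lowest value was 1. Counting depth does not apply, and 2 arrays per group limit the precision.

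Log2 intensities without an offset were fitted with limma 3.58.1 in R 4.3.3, as 8 group means over 16 arrays with empirical Bayes moderation, and p-values were adjusted by the Benjamini-Hochberg method over all 5716 probe sets, of which 5498 had a gene symbol. A call is an adjusted p under 0.05. The fit was tried on simulated data with independent noise on each array. That run cannot show how the calls hold where the deviations of arrays are correlated. All columns were used. No probe-level files and no sequences were analysed here, so the planned motif search was not run.

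Members and gene lists were chosen with earlier results of these data known. Named with values are, in each comparison, the 3 largest rises and 3 largest falls among calls without overlap between groups, the isoform pairs with NDI1, and the member of widest range in each complex; further members (such as RIP1, ATP7 and ATP12) and genes outside the list were chosen after their values were seen. Replicate numbers differ between titles and descriptions for the glucose-limited reference arrays. Correlations of the deviations of same-numbered arrays within the reference strain ran from -0.682 to 0.655 by title and from 0.354 to 0.682 by description, and within the mutant from 0.023 to 0.294, so the descriptions pair the reference arrays only. Replicate numbers in the text are those of the titles. Alternatives were median centring, quantile normalization, an offset of 50, the brighter probe sets, other moderation, a fit of only the arrays compared, a further log2 threshold of 1, replicate blocks, and leaving out each array.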

Additional observations from a re-analysis of the deposited data

Results flagged for a closer look

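The results below were picked out because a change differed between 2 settings by an interaction test in limma. In the reference strain, 39 of the 60 members passed the test of nitrogen limitation by carbon source, against 24.5% of all probe sets. The largest log2 values were those of CYC1 (1.14), NDE2 (0.90) and NDE1 (0.85), and COX5B (-1.63) and CYC7 (-0.55) were negative. The effect of ethanol against glucose under carbon limitation differed between mutant and reference strain for 12 members, against 21.3% of all probe sets. The extremes were ATP10 (0.93), COX17 (0.59), ATP23 (0.56), NDE2 (-0.73) and CYC7 (-0.47). The calls of ATP10 and ATP23 were each lost for 6 of the 8 arrays left out in turn.

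The effect of nitrogen limitation on glucose differed between mutant and reference strain for 10 of the 60 members, against 20.7% of all probe sets. The extremes were CYC1 (0.51), ATP14 (0.33), COX6 (0.29), NDE2 (-1.71), SDH4 (-0.30) and SDH2 (-0.24). COX6 lost its call for 6 of the 8 arrays left out in turn, ATP14 for 3 and SDH2 for 2. On ethanol the effect of nitrogen limitation differed for 2 members, CYC7 (0.33) and COX5B (-0.76), against 6.23% of all probe sets. The first call was lost for all 8 arrays left out in turn and the second for 6.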

How the results depend on the processing

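No named call changed direction under any alternative run, but the 5 higher and 10 lower members of the mutant nitrogen-limited on glucose were 10 higher and 8 lower after quantile normalization. Of 107 named results, 59 kept their call throughout and 48 lost it at least once, in 173 settings, 115 of them leaving out 1 array and 44 fitting only the arrays compared, which leaves fewer arrays for the spread. The counts of members called that moved by over 1.5 times are given by setting, and the cause was not tested beyond this. Median centring gave 16 for nitrogen limitation on ethanol in the mutant. The brighter probe sets gave 5 there and 0 for strain by limitation on ethanol, where the title replicate block and trended robust moderation each gave 1. Fitting only the arrays compared gave 7 (carbon-limited) and 14 (nitrogen-limited) for ethanol against glucose in the reference strain. It gave 1 in the mutant and 0 in the reference strain for nitrogen limitation on ethanol. For mutant against reference it gave 1 glucose-limited, 4 nitrogen-limited on glucose, 1 ethanol-limited and 1 nitrogen-limited on ethanol. The interactions gave 6 for strain by carbon source, 4 for strain by limitation on glucose and 0 on ethanol. The description replicate block gave 16 for ethanol against glucose in the carbon-limited mutant, 20 for nitrogen limitation on ethanol in the mutant, 17 and 27 for mutant against reference when glucose-limited and nitrogen-limited on ethanol, and 17 for strain by limitation on glucose; this block was chosen after seeing the data. The title block changed no other count by over 1.5 times. Requiring a log2 difference of at least 1 left 1 and 3 calls in the mutant and 2 and 3 in the reference strain for ethanol against glucose, carbon-limited and nitrogen-limited. It left 2 in each strain for nitrogen limitation on glucose, 0 in each on ethanol, 1 for mutant against reference nitrogen-limited on glucose and 0 in the other 3 conditions, and 2, 0, 1 and 0 for the interactions.

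Leaving out 1 array gave 3 to 9 calls in the mutant and 12 to 17 in the reference strain for ethanol against glucose under carbon limitation, and 36 to 38 and 36 to 37 under nitrogen limitation. Nitrogen limitation gave 34 to 40 and 43 to 48 on glucose, and 4 to 8 and 1 to 3 on ethanol. Mutant against reference gave 1 to 7 glucose-limited, 8 to 13 nitrogen-limited on glucose, 3 to 12 ethanol-limited and 4 to 9 nitrogen-limited on ethanol. The interactions gave 33 to 40 for carbon source by limitation, 7 to 11 for strain by carbon source, and 4 to 11 and 0 to 2 for strain by limitation on glucose and ethanol. The median over the members changed sign with the scaling for ethanol against glucose in the carbon-limited mutant (0.01, and -0.04 after centring) and for mutant against reference nitrogen-limited on glucose (-0.00, and 0.04 after quantile normalization). Array scaling moved the median of all probe sets by at most 0.0698. Signal over background was not available per probe set, so it is unknown how near the dimmest members were to it.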

Other observations

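Genes outside the list, chosen after their values were seen, showed larger differences between the strains than most members. SHH3, a homolog of the membrane anchor SDH3, had 10.63 and 11.01 in the mutant nitrogen-limited on glucose against 12.42 and 12.52 in the reference strain (-1.64, SE 0.10, adjusted p = 1.66e-06). Nitrogen-limited on ethanol, SHH3 had 11.40 and 11.51 in the mutant against 13.52 and 13.51 (-2.06, SE 0.10, adjusted p = 4.12e-07). When glucose-limited, SHH3 was higher in the mutant, with 13.62 and 13.59 against 13.15 and 13.13 (0.47, adjusted p = 0.00915). SHH4, a homolog of SDH4, was lower in the mutant nitrogen-limited on ethanol, with 12.38 and 12.36 against 13.59 and 13.56 (-1.21, SE 0.05, adjusted p = 1.26e-07), and higher when glucose-limited (0.76, adjusted p = 7.3e-06). When ethanol-limited, SHH3 had 12.72 and 12.69 in the mutant against 13.34 and 13.35, and SHH4 had 12.93 and 12.86 against 13.39 and 13.44. Nitrogen-limited on glucose, SHH4 had 12.79 and 12.75 in the mutant against 13.10 and 13.24.

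NCA3, known for a part in the expression of mitochondrial ATP synthase genes, had 10.76 and 11.05 in the mutant nitrogen-limited on glucose against 12.68 and 12.78 in the reference strain (-1.83, SE 0.08, adjusted p = 1.65e-07). NCA3 had 12.50 and 12.54 in the mutant nitrogen-limited on ethanol against 13.49 and 13.48 (-0.96, SE 0.08, adjusted p = 2.49e-05), and differed by 0.07 when ethanol-limited (adjusted p = 0.564). Like NDE2, SHH3 and NCA3 were lower in the mutant under nitrogen limitation on either carbon source and higher in it when glucose-limited, NCA3 by 0.34 (adjusted p = 0.0153). NDE2, SHH3 and SHH4 were lower in the mutant when ethanol-limited too, so for them the lower level was not confined to nitrogen limitation.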
